A study of Mus musculus with 10 samples.

Results

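CpG-poor promoter H3K27me3 peaks are a minority class of the H3K27me3 peaks called in WT CD71+Ter119+ erythroblasts of the e14.5 fetal liver (FL). They were chosen by 2 kinds of values: the peak call itself, and the bases under it. A peak belonged to the class when it reached into the window of 1 kb up- or downstream of a protein-coding TSS and when the 1 kb centred on its summit had a GC content under 50% or an observed over expected CpG ratio under 0.6. Of the 4490 peaks in the list, 2241 lay at a TSS and 486 of those (21.7%, with a 95% Wilson interval of 20.03 to 23.4%) were CpG-poor, while the other 1755 were CpG-island promoter peaks. CpG content, GC content and the presence of a peak are therefore given only as descriptions, and no test was run on them.

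H3K27me3, the trimethylation of lysine 27 on histone H3, is deposited by Polycomb repressive complex 2 (PRC2) and marks promoters of genes that are kept silent, many of them regulators of development. In mammals PRC2 is found mainly at CpG islands, stretches of DNA rich in unmethylated CpG dinucleotides, and Mtf2 (also called Pcl2) is a PRC2-associated protein that binds such DNA. Promoters without a CpG island tend to belong to genes used in 1 tissue, and they often carry methylated DNA when the gene is off.

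The study sorted FL cells of e14.5 embryos into CD71+Ter119-/lo pro-erythroblasts and CD71+Ter119+ erythroblasts (labelled CD71+Ter119high) and profiled them by ChIP-seq. The embryos were WT or Mtf2-null (Mtf2-/-, labelled Pcl2 -/-), on a C57Bl/6 background, and the mutant line came from gene-targeted C57Bl/6 ES cells. H3K27me3 was profiled in both genotypes and both fractions, Mtf2 in WT cells of both fractions, and IgG served as the control of each fraction and genotype. There was 1 library per condition (6 ChIP and 4 IgG libraries), so no spread between replicates exists, and every comparison below is between lists or peaks of these libraries. The WT erythroblast H3K27me3 library held 30054186 unique tags and its IgG control 12345800, and this IgG control also served the erythroblast Mtf2 library.

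The bases around the summit show how different the members of the class were from each other. The 300 bp centred on the summit are printed for the highest-scoring member of each composition class (*C1qtnf4*, *Syngr3* and *Prdm1*), for the highest-scoring member overlapped by a pro-erythroblast H3K27me3 peak (*Fgf11*), a pro-erythroblast Mtf2 peak (*Hoxc10*) and an erythroblast Mtf2 peak (*Gne*), and for the strongest CpG-island promoter peak of the list (*Unc45b*) as the contrast. *Muc3* was added after its values were seen. It was the highest-scoring member with a CpG ratio under 0.1 among those without CpG-island composition within 2 kb of the summit. Each is read 5′ to 3′ on the strand of its gene, from the NCBIM37 assembly (mm9), with every CpG in capitals.
C1qtnf4 chr2:90725866-90726165 (+ strand): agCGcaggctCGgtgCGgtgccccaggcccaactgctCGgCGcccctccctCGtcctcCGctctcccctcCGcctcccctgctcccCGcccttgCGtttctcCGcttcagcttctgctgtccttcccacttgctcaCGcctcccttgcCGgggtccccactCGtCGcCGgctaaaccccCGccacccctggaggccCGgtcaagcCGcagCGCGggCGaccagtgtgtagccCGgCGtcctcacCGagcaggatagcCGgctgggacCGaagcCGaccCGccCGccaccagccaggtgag
Fgf11 chr11:69616244-69616543 (- strand): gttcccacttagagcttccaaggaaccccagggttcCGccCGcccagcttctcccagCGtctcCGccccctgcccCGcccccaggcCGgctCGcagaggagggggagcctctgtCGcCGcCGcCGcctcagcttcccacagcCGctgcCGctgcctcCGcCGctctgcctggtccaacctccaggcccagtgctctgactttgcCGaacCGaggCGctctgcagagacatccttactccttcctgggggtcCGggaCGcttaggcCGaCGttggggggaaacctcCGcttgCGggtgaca
Syngr3 chr17:24825409-24825708 (- strand): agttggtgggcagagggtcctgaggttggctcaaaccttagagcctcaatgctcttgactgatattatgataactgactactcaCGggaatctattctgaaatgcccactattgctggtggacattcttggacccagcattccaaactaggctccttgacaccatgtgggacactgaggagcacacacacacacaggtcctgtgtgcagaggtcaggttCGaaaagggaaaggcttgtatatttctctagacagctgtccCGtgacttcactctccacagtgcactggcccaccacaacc
Prdm1 chr10:44248098-44248397 (- strand): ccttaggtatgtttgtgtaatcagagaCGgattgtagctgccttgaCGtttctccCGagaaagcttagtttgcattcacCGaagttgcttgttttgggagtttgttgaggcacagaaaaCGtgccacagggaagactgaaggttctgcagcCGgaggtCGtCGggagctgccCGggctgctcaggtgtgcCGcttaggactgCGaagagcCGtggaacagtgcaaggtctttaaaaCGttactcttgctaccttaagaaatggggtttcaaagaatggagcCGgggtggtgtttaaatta
Hoxc10 chr15:102798124-102798423 (+ strand): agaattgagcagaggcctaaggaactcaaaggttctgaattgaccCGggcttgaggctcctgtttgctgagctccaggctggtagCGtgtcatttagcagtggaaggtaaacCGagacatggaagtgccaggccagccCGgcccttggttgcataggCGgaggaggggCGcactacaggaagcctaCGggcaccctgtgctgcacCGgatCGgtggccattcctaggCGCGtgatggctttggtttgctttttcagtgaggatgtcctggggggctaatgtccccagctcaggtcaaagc
Gne chr4:44075580-44075879 (- strand): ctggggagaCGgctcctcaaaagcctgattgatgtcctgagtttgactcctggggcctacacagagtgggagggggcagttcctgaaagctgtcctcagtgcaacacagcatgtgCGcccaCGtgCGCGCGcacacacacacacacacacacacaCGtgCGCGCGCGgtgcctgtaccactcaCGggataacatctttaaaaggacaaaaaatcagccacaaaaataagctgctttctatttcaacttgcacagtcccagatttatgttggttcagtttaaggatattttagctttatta
Muc3 chr5:137625689-137625988 (- strand): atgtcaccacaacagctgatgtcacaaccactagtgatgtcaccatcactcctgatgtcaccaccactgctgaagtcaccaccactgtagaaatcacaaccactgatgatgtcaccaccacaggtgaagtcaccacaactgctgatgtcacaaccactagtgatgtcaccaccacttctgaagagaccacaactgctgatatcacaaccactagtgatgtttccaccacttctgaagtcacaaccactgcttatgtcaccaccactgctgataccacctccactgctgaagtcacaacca
Unc45b chr11:82744594-82744893 (+ strand): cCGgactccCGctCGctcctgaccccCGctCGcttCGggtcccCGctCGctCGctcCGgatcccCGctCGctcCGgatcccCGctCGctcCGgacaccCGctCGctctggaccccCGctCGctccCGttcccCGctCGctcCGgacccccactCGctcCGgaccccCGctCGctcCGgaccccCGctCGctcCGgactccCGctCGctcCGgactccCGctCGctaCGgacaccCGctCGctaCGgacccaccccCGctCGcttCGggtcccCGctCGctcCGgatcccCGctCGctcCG

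These stretches held 30 CpGs at *C1qtnf4*, 24 at *Fgf11*, 14 at *Prdm1*, 12 at *Gne*, 11 at *Hoxc10*, 3 at *Syngr3* and 0 at *Muc3*, compared with 50 at *Unc45b*. The class therefore ran from summits with a short CpG-dense core, as at *C1qtnf4*, to summits with almost none. *C1qtnf4* had a CpG ratio of 0.821 over the central 300 bp and 0.580 over 1 kb, so the flanks brought the 1 kb value under the limit. At *Muc3* the 1 kb around the summit held 4 CpGs. The printed stretches of *Muc3* and *Unc45b* both consist of short, similar units repeated in tandem, so neither can be taken as typical of its class. The *Unc45b* summit also lay 2283 bp downstream of its assigned TSS. Whether such repeats affected where reads were placed was not tested.

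Most of the class missed the island limits on CpG ratio and not on GC content. In 341 members (70.2%, interval 66.0 to 74.1%) only the CpG ratio was under its limit, in 136 (28.0%, interval 24.2 to 32.1%) both values were, and in 9 (1.85%) only the GC content was. The median GC content was 54.0% (interval 53.3 to 54.9%) and the median CpG ratio 0.440 (0.413 to 0.469), with 32.5 CpGs per kb, compared with 67.8%, 0.818 and 92 CpGs per kb in the CpG-island promoter peaks. Members ranged from 1 to 72 CpGs in the 1 kb around the summit. The lowest CpG ratio, 0.0330, was at *Zfyve16*, an endosomal protein gene, where a peak of 21 tags sat in sequence of 35.3% GC. A CpG ratio under 0.2 was found in 63 members (13.0%), compared with 785 of the 1869 CpG-poor peaks away from TSS (42.0%).

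**Figure D1:**
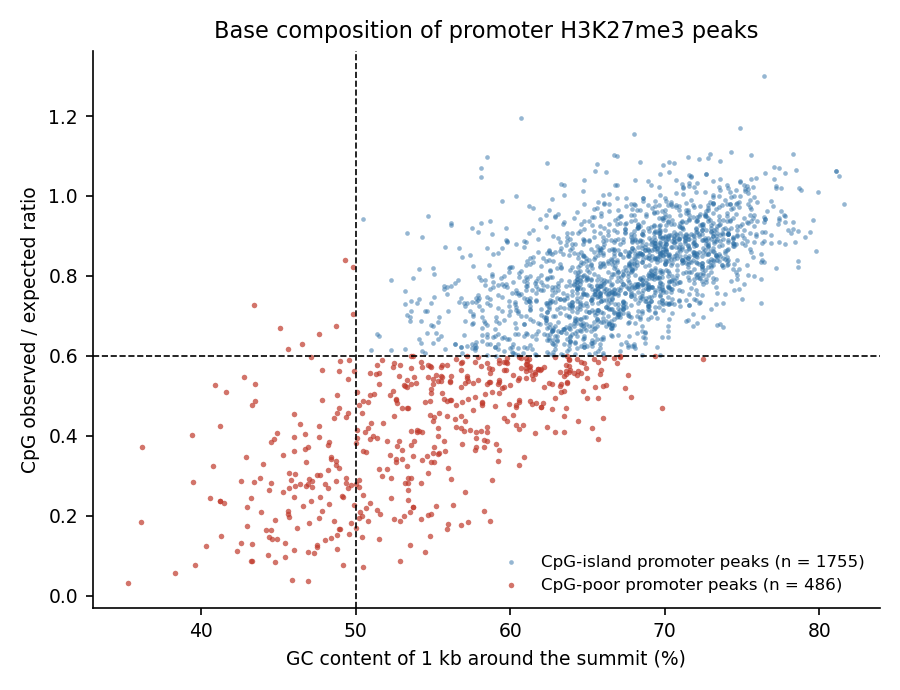
Each point is 1 promoter H3K27me3 peak of WT erythroblasts, with the GC content of the 1 kb around its summit (%) on the x axis and the CpG observed over expected ratio on the y axis, and dashed lines at the limits of 50% and 0.6. The 486 CpG-poor members (red) lie mostly at the lower right of the limits, 341 of them with GC content of at least 50%, and spread without a gap from the 1755 CpG-island peaks (blue).

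The limits cut through a continuous range. Of the members, 95 (19.5%) had a CpG ratio between 0.55 and 0.6 with enough GC. Just inside the CpG limit lay *Dlx4* (0.5999, 39 tags, fold enrichment 10.1), *Lrrc3* (0.5998, 22 tags, 6.74) and *Mkx* (0.5995, 21 tags, 6.74), and just outside it *Gm10837* (0.6003, 39 tags, 7.70), *Ccr10* (0.6011, 68 tags, 8.42) and *Npr2* (0.6012, 108 tags, 9.78). For GC content the members nearest to the limit were *Fdx1* (49.8%, 35 tags), *Pcdh7* (49.8%, 24 tags) and *Dab2* (49.3%, 21 tags), and the nearest excluded peaks were those at *Ebf1* (50.5%, 63 tags), *Sfmbt2* (51%, 22 tags) and *Ttbk1* (51.4%, 81 tags).

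The CpG-poor promoter peaks were smaller than the CpG-island promoter peaks of the same list. Their median length was 912 bp (interval 852 to 960 bp), compared with 1423 bp (1392 to 1451 bp), and they held a median of 31 tags (29 to 33), compared with 59 (57 to 62). Per kb the medians were closer, 34.2 and 40.9 tags. The deposited score, which is 10 times the −log10 of the peak's p, had a median of 61.9 (59.7 to 64.2) compared with 109 (104 to 115), and the authors' cutoff of 1e-05 sets its floor at 50. The fold enrichment over background, which MACS takes from the genome-wide expectation or the local control, had a median of 7.86 (7.81 to 7.86) compared with 8.98 (8.98 to 9.22), a ratio of 0.875. These values come from 1 library and its control, so they describe its peaks and do not test the classes against each other.

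Few members were far above the calling limit. A score of at least 100 was reached by 102 of 486 (21.0%, interval 17.6 to 24.8%), while 29.5% of all peaks of the list and 55.1% of the CpG-island promoter peaks reached it. An FDR of at most 5% was reached by 100 members (20.6%), by 29.2% of all peaks and by 54.6% of the CpG-island promoter peaks. The median FDR of the members was 19.9%, and the highest was 33.9%. CpG-poor peaks away from TSS were weaker still, with a score of at least 100 in 5.03%.

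**Figure D2:**
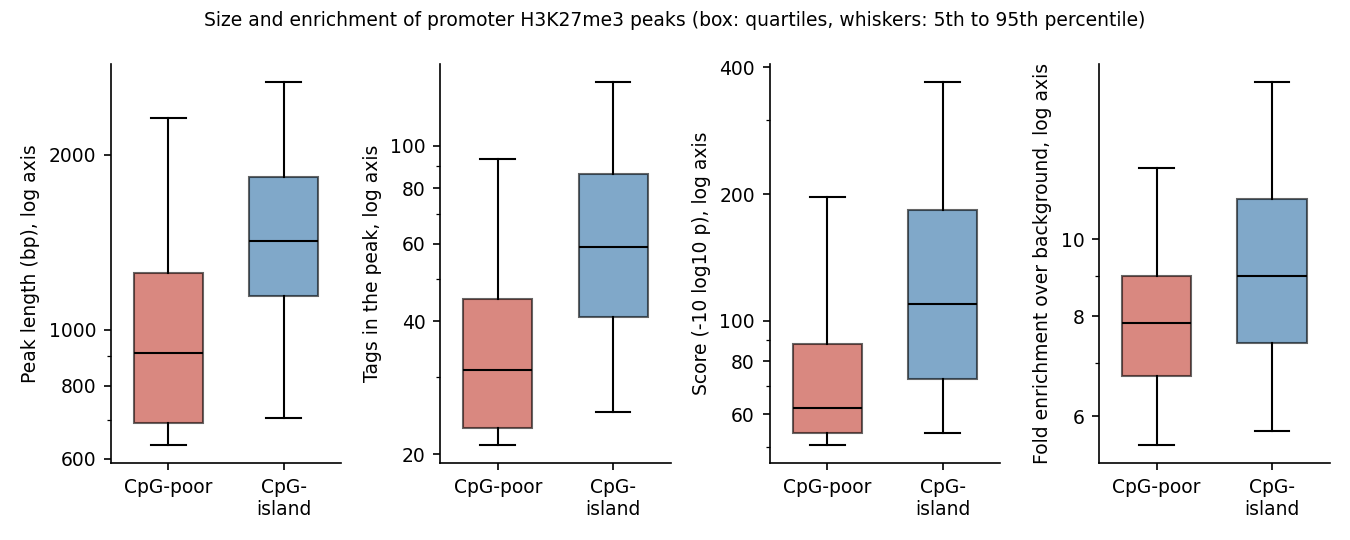
Boxes show the quartiles of peak length (bp), tags in the peak, score and fold enrichment over background on log axes for the 486 CpG-poor and the 1755 CpG-island promoter peaks, with whiskers from the 5th to the 95th percentile. The medians of the CpG-poor peaks are lower in all 4 panels, 31 against 59 tags and 61.9 against 109 in score, and least apart in fold enrichment.

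The fold enrichments of the members moved in steps. At this depth 0.890 reads are expected over any base of the genome by the authors' settings, so 1 read corresponds to a fold enrichment of 1.12. In 252 members (51.9%, interval 47.4 to 56.3%) the deposited fold enrichment was a whole multiple of that step within 0.006, compared with 28.7% of the CpG-island promoter peaks. Over these 252 the summit corresponded to between 4 and 17 reads with a median of 7, so a typical member rests on a handful of reads at its summit. Among the CpG-island promoter peaks with such values the median was 9. Over all peaks of each class, the median fold enrichments of 7.86 and 8.98 are the neighbouring steps of 7 and 8 reads. Their ratio therefore reflects a single step.

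The strongest members lay at genes of many tissues. *C1qtnf4*, which encodes a secreted C1q/TNF-related protein, had the highest score, 577, with 223 tags over chr2:90725072-90730422 and a fold enrichment of 11.2. Its summit was 1 bp upstream of the assigned TSS. *Nlgn2*, a postsynaptic adhesion protein gene, followed with a score of 504, 139 tags and a fold enrichment of 19.1 over chr11:69649292-69651746. *Fgf11*, of the fibroblast growth factor family, came next with a score of 427, 126 tags and a fold enrichment of 17.97, and *Syngr3*, a synaptic vesicle protein gene, had a score of 394 and 170 tags. *Egr3*, an immediate-early zinc finger factor gene, had a score of 389.9 with its summit at -1718 bp from the TSS.

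The next members in order were *Ccdc106* (score 359), *Rpp25* (339.6), *A230052G05Rik* (327), *Tpm1* (317) and *Rgl3* (286). *Tpm1* encodes a tropomyosin of the actin filament, and *Rgl3* a guanine nucleotide exchange factor for Ral. *Hsd17b1*, a steroid dehydrogenase gene, had a score of 282, *Pkp1*, the desmosomal plakophilin 1 gene, 281, and *Ntf5*, the neurotrophin 4/5 gene, 255. The remainder of the highest 20 were *Arvcf* (244), *Efcab4a* (222), *Mdga1* (222), *Il11* (221), *Prss16* (219.7), *Gipc2* (219) and the homeodomain factor gene *Pitx3* (208). All 20 had an FDR between 1.79% and 4.17%. Their CpG ratios ran from 0.151 at *Mdga1* to 0.599 at *Arvcf*.

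By fold enrichment the order differed. *Ccdc136* was highest at 19.7 with only 56 tags over 1250 bp, and its summit lay 18 bp downstream of the TSS. *Sox4*, a developmental transcription factor gene, reached 19.1 with 24 tags and an FDR of 15.9%, so its peak was narrow and its score of 66.8 low. *Nlgn2*, *Fgf11* and *A230052G05Rik* (16.4) completed the highest 5. *Muc3*, an intestinal mucin gene, had a fold enrichment of 16.0 with 68 tags over chr5:137625301-137626498, a score of 115 and a CpG ratio of 0.0730.

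Among the 9 members with low GC content but an island-like CpG ratio the highest score, 140, was at *Prdm1*, the gene of the transcription factor Blimp-1 (82 tags, GC content 45.1%, CpG ratio 0.669). *Gm17379*, second with a score of 90.3, had the longest peak of the class, 14032 bp with 825 tags, but a fold enrichment of only 5.03. It was the only member on the X chromosome, near the end of the assembled sequence, while 13 CpG-island promoter peaks lay on X. *Fdx1* followed. In the members low in both values, *Syngr3* was followed by *Prss16*, a thymic serine protease gene, and *Msx3*, a homeobox gene, with scores of 219.7 and 196.

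The summits of the class were spread more widely around the TSS than those of the CpG-island promoter peaks. The signed median was 28.5 bp downstream (interval -17 to 94 bp), which contains the TSS itself, compared with 111 bp downstream (99 to 124 bp). The median absolute distance of a summit to its assigned TSS was 606 bp (interval 548 to 660 bp), compared with 186 bp (174 to 201 bp) for the CpG-island promoter peaks. Within 250 bp lay 142 members (29.2%, interval 25.4 to 33.4%), compared with 58.7%, and within 1 kb 363 (74.7%), compared with 93.3%. Summits were downstream of the TSS in 258 members (53.1%, interval 48.6 to 57.5%), compared with 69.5% (67.3 to 71.6%) of the CpG-island promoter peaks. The fullest 500 bp bin, just downstream of the TSS, held 23.0% of the members and 54.0% of the CpG-island promoter peaks, and the 2 bins from 0.5 to 1.5 kb upstream held 68 and 58 members. Position and rule are not independent, since the composition was read at the summit.

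**Figure D3:**
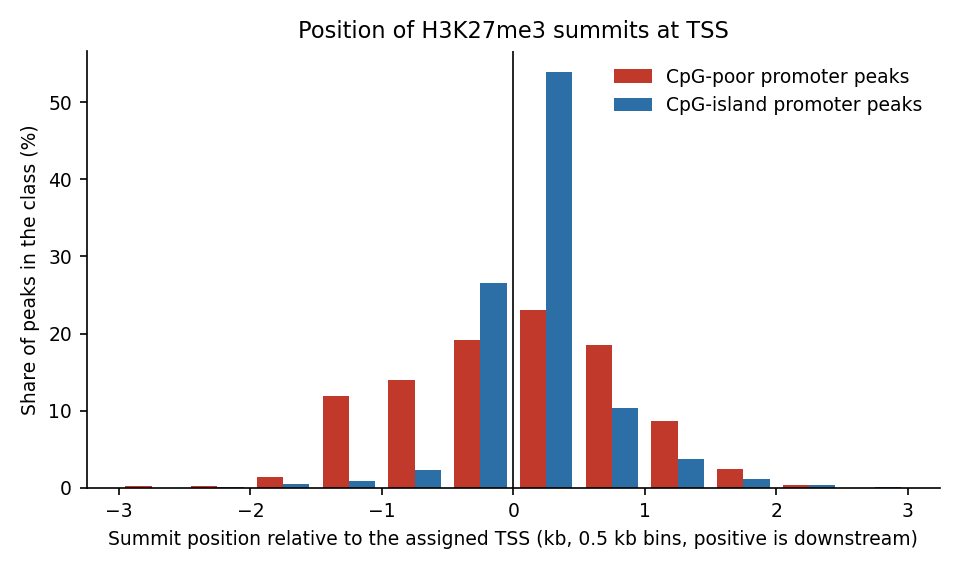
Bars give the share of peaks (%) whose summit falls in each 0.5 kb bin relative to the assigned TSS, with downstream positive, for CpG-poor (red) and CpG-island (blue) promoter peaks. The CpG-poor peaks are spread over about 1.5 kb on both sides, with 23.0% in the bin just downstream of the TSS, where 54.0% of the CpG-island peaks are.

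Position differed between the larger composition classes, which were made from the bases at the summit and so are not independent of position. Members low in both values had a median distance of 902 bp, lay upstream of the TSS in 61.8% (interval 53.4 to 69.5%) and had only 11.8% of their summits within 250 bp. Members low in CpG ratio alone had a median distance of 494 bp, were upstream in 40.8% and had 36.4% of their summits within 250 bp. The 9 members low in GC content alone were too few to place, with a median distance of 635 bp (interval 59 to 1104 bp). In the class as a whole 120 summits (24.7%) were in an exon of a protein-coding gene, 224 (46.1%) in an intron and 142 (29.2%) outside protein-coding genes, while 61.2% of the CpG-island promoter summits were in an exon. The assigned TSS was the most upstream of its gene in 247 members (50.8%, interval 46.4 to 55.2%), compared with 55.4% (53.1 to 57.8%) of the CpG-island promoter peaks. It started a transcript annotated as protein-coding in 378 members (77.8%, 73.9 to 81.2%), compared with 87.0% (85.3 to 88.4%).

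Many members had island-like sequence nearby. The 1 kb around the assigned TSS itself had island-like composition for 176 of 486 (36.2%, interval 32.1 to 40.6%), close to the 39.2% of all 69963 distinct protein-coding TSS and below the 93.1% (91.8 to 94.2%) of the CpG-island promoter peaks. This share depended strongly on the window in which composition was read, at 45.8% with 500 bp and 16.0% with 2 kb. An island-like 1 kb window was centred within 2 kb of the summit in 332 members (68.3%, interval 64.0 to 72.3%), and at a median distance of 450 bp, whereas 48.8% of all TSS had one within 2 kb. In 190 members (39.1%) such a window was centred inside the called peak. *Egr3* is an example of a summit off the TSS, with CpG ratios of 0.567 at the summit and 0.749 at the TSS, and *Mdga1* of an extreme one, with 0.151 and 0.765.

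The remaining 154 members had no island-like window within 2 kb, and 125 members had none within 5 kb. Their median score was 59.2 (interval 56.7 to 63.4), compared with 62.8 (60.6 to 66.9) in the 332, and they held 29 tags (26 to 32) compared with 32 (29 to 33), so these intervals overlapped. The median fold enrichment was 7.86 in both groups, which is the step of 7 reads and is also the median of the CpG-poor peaks away from TSS, so it does not separate groups. A score of at least 100 was reached by 27 of them (17.5%, interval 12.3 to 24.3%), compared with 75 of the 332 (22.6%, 18.4 to 27.4%). Their summits were nearer to the TSS, at a median of 386 bp (249 to 576 bp) compared with 668 bp (602 to 797 bp), and 42.2% (34.7 to 50.1%) lay within 250 bp compared with 23.2% (18.98 to 28.0%). The assigned TSS was island-like for 176 of the 332 and for 0 of the 154. A member's summit had to be CpG-poor over 1 kb, so it had to lie off an island-like TSS. The difference in distance therefore follows in part from the rule and the grouping, and is given as a description. Of the 20 highest-scoring members 5 were in the group of 154, *C1qtnf4*, *Rgl3*, *Hsd17b1*, *Ntf5* and *Il11*. The grouping holds for 1 kb windows only. Over its central 300 bp *C1qtnf4* met both island limits, with 72.3% GC and a CpG ratio of 0.821.

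Mean CpG density had a maximum at these summits, to which only part of the members contributed. In the 154 members without a nearby island the central 100 bp held a mean of 4.61 CpGs, compared with 2.05 in the 100 bp centred 450 bp away and 1.79 at 1 kb. The central median was lower than the mean, 3 CpGs, and 88 of the 154 (57.1%) had more CpGs in the central 100 bp than 450 bp away, while 48 had fewer and 18 as many. The central 300 bp met the island limits by itself in 45 of them (29.2%, interval 22.6 to 36.8%). Around their TSS the mean was 4.81 CpGs per 100 bp in the first bin downstream and 1.25 at 1 kb upstream. The 332 members with an island nearby had 4.07 CpGs in the central 100 bp, 3.07 at 450 bp and 4.0045 at 1 kb, and 7.78 just downstream of the TSS. Of these, 163 (49.1%) had more CpGs centrally than 450 bp away and 145 had fewer, and the median was 3 at both places. CpG-island promoter peaks had 13.3, 6.38 and 3.08 CpGs at the same distances from the summit. The rule set the total over the central 1 kb, and the search for a nearby island set the level in the flanks of both groups of members, so the flanks are a description of the grouping and no result.

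**Figure D4:**
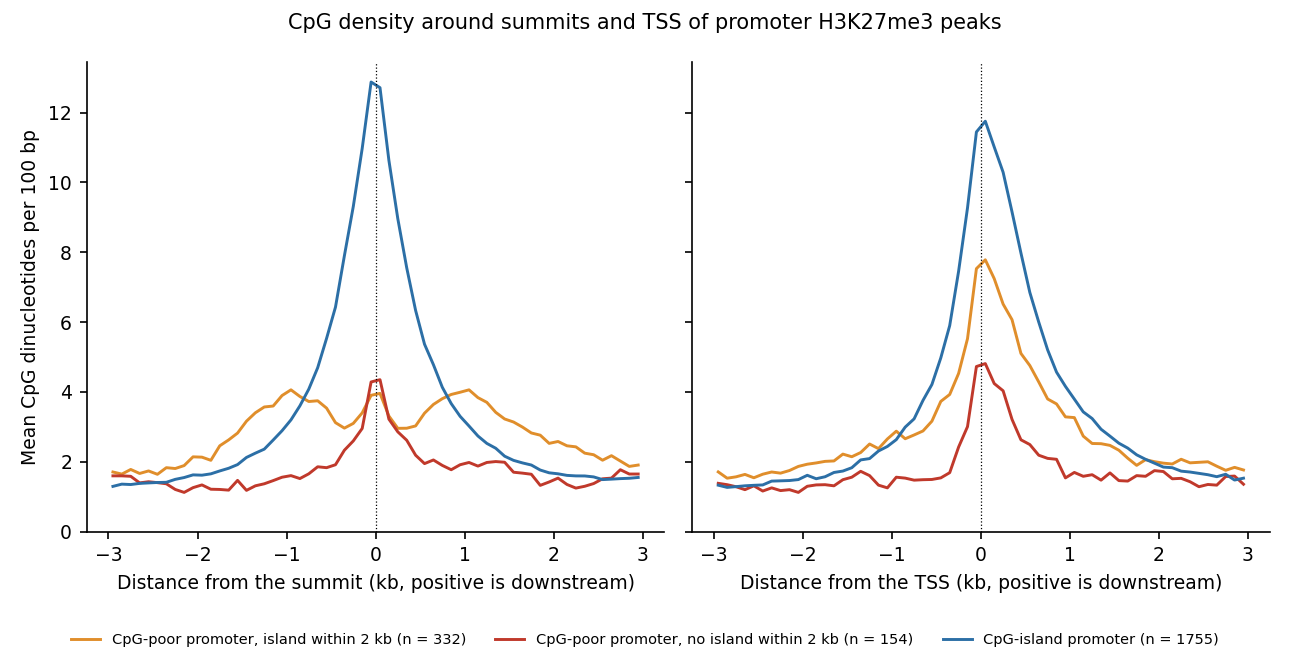
Lines give the mean number of CpG dinucleotides per 100 bp at distances of up to 3 kb from the summit (left) or the assigned TSS (right), on the strand of the gene, for members with an island-like window within 2 kb (orange, n = 332), members without one (red, n = 154) and CpG-island promoter peaks (blue, n = 1755). The mean of members without such a window is highest at the summit, at 4.35. That of members with one rises to 3.96 there but reaches 4.06 at 950 bp upstream and 1050 bp downstream. More CpGs centrally than 450 bp away were found in 88 of 154 and 163 of 332 members. The flanks are high or low by the way the groups were made.

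Members often came in runs. Another peak of the list lay within 1 kb of 194 members (39.9%, interval 35.7 to 44.3%), compared with 290 of the CpG-island promoter peaks (16.5%, 14.9 to 18.3%). The 486 members were assigned to 429 genes, and 101 of them (20.8%) shared their gene with another member. *Rundc3a*, a gene with high expression in the nervous system, had 4, with 32, 44, 32 and 68 tags. *Pyy*, which encodes the gut hormone peptide YY, had 3 with 32, 38 and 22 tags, and *Kremen2*, a receptor for Dickkopf proteins of the Wnt pathway, had 3 with 23, 22 and 29 tags. At *Kremen2* the first ended at 23882187 and the second began at 23882189 on chromosome 17, so 1 base separated them, and the members of such a run are not independent. *Ccdc136*, *Lbx2*, *Lhx6*, *Nfatc4*, *Pax6*, *Prss16*, *Rarg*, *Sox6* and *Tcf7l2* each had 3.

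Counted by gene, 453 of 22367 protein-coding genes (2.03%) had a CpG-poor member within 1 kb of any TSS and 1762 (7.88%) a CpG-island promoter peak. Both kinds were present at 130 genes, and 323 had a CpG-poor member only. Of the 453 genes, 108 fell into at least 1 of the 25 gene groups that were counted, and these groups overlap.

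Among the gene groups with more than 100 genes, those of developmental transcription factors had the highest shares. Homeodomain transcription factor genes had a CpG-poor member at 27 of 136 (19.9%) and a CpG-island promoter peak at 77 (56.6%), and 12 of the 27 had no CpG-island peak. *Pitx3*, *Msx3*, *Hmx2* and *Lhx1* had the highest scores, 208, 196, 176 and 170, with 70, 88, 81 and 117 tags. The *Pitx3* summit was 44 bp from its TSS, while those of the others were more than 1 kb away and had an island-like TSS. Forkhead, Sox, T-box, Gata and bHLH factor genes had members at 11 of 119 (9.24%) and CpG-island peaks at 55 (46.2%). *Hey2* (score 116), *Foxj1* (113), *Heyl* (104) and *Sox6* (89.7) were the highest. *Hey2* and *Heyl* are targets of Notch signalling, and *Foxj1* is required for motile cilia. *Gata3*, which directs T cell development, had a member of 23 tags and *Gata6* one of 42.

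Wnt ligands, receptors and antagonists had members at 3 of 50 genes (6.00%), all 3 of them ligands, and CpG-island promoter peaks at 26 (52.0%). The list of this group did not hold *Kremen2*, the receptor gene of the pathway with 3 members. *Wnt10b* had 36 tags and a fold enrichment of 10.1, *Wnt2b* 28 tags and 5.61, and *Wnt10a* 26 tags and 6.18. C2H2 zinc finger genes had members at 11 of 467 (2.36%), led by *Egr3*, *Zfp580* (score 107), *Gli1* (100.02), an effector of hedgehog signalling, and *Sall2* (83.9). For this group the share was near that of all genes.

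Genes of excitable and adhesive cells were counted beside the 2.03% of all protein-coding genes with a member, and the counts were small. CpG-island promoter peaks were more frequent in each of these groups. They were at 25.6% of ion channel, 23.4% of synaptic, 13.3% of matrix, 11.8% of adhesion and 6.12% of muscle genes, compared with 7.88% of all genes. Ion channel genes had members at 11 of 180 (6.11%), among them the calcium channel subunit gene *Cacnb3* (score 90.2) and the potassium channel genes *Kcnh4* (85.1) and *Kcna2* (72.8). Among neurotransmitter receptors and synaptic proteins 3 of 94 (3.19%) had one, *Nlgn2*, *Syt2* (149) and *Dlgap4* (88.0). Collagens, laminins and matrix proteases had members at 6 of 105 (5.71%), including *Mmp28* (124), whose summit was 1 bp from its TSS, *Col8a2* (102) and *Mmp23* (86.0). Cadherins, claudins, connexins and integrins had them at 5 of 136 (3.68%), with *Cdh22* (102) highest, then *Itgb3* (70.0) and *Itga1* (66.8). Skeletal and cardiac muscle genes had members at 2 of 49 (4.08%), *Myh7b* (85.8) and *Cacna1s* (53.2).

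Immune genes were counted in the same way. Cytokines, chemokines and their receptors had members at 6 of 190 genes (3.16%) and CpG-island peaks at 8 (4.21%). *Il11*, an interleukin of the IL-6 family, had 114 tags, *Tnfsf13b*, the B cell survival factor BAFF, 22, and *Lif*, leukaemia inhibitory factor, 21. Surface CD antigens, lectins and Fc receptors had 1 of 143 (0.699%). Serpins and serine proteases had 1 of 142 (0.704%), at *Prss16*, keratins 1 of 92 (1.09%), at *Krt18*, and olfactory and vomeronasal receptors 1 of 1433 (0.0698%), at *Olfr1371*, with 24 tags and a CpG ratio of 0.107.

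The next groups had shares near the 2.03% of all protein-coding genes. Solute carriers had members at 8 of 355 (2.25%), led by *Slc26a10* (score 126), *Slc17a7* (113), the vesicular glutamate transporter VGLUT1, *Slc16a11* (100.5) and *Slc44a5* (79.1). Receptors coupled to G proteins, olfactory ones aside, had them at 4 of 192 (2.08%), among them *Grm8* (173), *Gpr3* (67.7) and *Gpr75* (62.8). Of cytochrome P450, UGT and glutathione transferase genes 3 of 137 (2.19%) had a member and none had a CpG-island promoter peak. *Cyp26a1* (120.5), which degrades retinoic acid, *Cyp27b1* (102), which activates vitamin D, and *Gstt3* (73.6) were those genes.

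The markers of the blood and liver cell types were counted beside the 2.03% of all protein-coding genes that had a member. At such a share, lists of 10 to 20 genes are too short to show where the class lay. None of the 19 erythroid markers found in the annotation, among them *Gata1*, *Klf1* and *Alas2*, had a CpG-poor member, and 1 (*Ank1*) had a CpG-island promoter peak. Of the other lineages' markers, *Lck* (1 of 20 lymphoid markers, a T cell kinase), *Itgb3* (1 of 10 megakaryocyte), *Flt3* (1 of 10 stem and progenitor, a cytokine receptor) and *Kdr* and *Esam* (2 of 10 endothelial) had a CpG-poor member. None of these 5 had a CpG-island promoter peak. No myeloid marker (of 20) and no hepatocyte marker (of 15) had a promoter peak of either kind. *Kdr*, the VEGF receptor 2 gene, had the strongest, with 68 tags, a score of 148 and a summit 1205 bp downstream of an island-like TSS, while *Lck* had 22 tags, *Flt3* 31, *Itgb3* 32 and *Esam* 21. Peak lists hold no RNA, so whether these genes were expressed was not measured.

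Sequence motifs were searched as plain letters. TATAAA was present in the 50 bases before the TSS on the sense strand for 6 members (1.23%, interval 0.567 to 2.67%), 1.08% of the CpG-island promoter peaks and 1.88% of all TSS, counting 69965 start and strand pairs. GATAAG, the letters bound by GATA factors, or its reverse complement was in the 1 kb around the summit of 98 members (20.2%, 16.8 to 23.96%), in 9.23% of the CpG-island promoter peaks and in the 1 kb around 20.8% of all TSS. GAGAGA on either strand was in 330 members (67.9%, 63.6 to 71.9%), compared with 50.4% of the CpG-island promoter peaks and 59.6% of all TSS. The interval of the members' GAGAGA share lay above the share of all TSS, and in the 154 members without a nearby island it was 61.0% (53.2 to 68.4%). A match says only that the letters are there, and base composition, which the rule used, sets how often they occur.

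The 2 erythroid stages were compared next, by asking which members were already overlapped by an H3K27me3 peak in WT pro-erythroblasts. This was so for 43 of 486 (8.85%, interval 6.63 to 11.7%), compared with 6.3% of all erythroblast peaks and 8.03% (6.85 to 9.40%) of the CpG-island promoter peaks. The interval of the members contained the value of the CpG-island promoter peaks and began just above that of all peaks, which include the members. It treats peaks as independent, although many members came in runs, so it does not set the members apart. The count rests on overlaps of at least 1 base. It fell to 3.09% where 50% of the member had to be covered and to 0% under a score limit of 100 or an FDR limit of 5% in both lists. It was higher where the erythroblast peak was stronger: 17 of the 102 members with a score of at least 100 (16.7%, 10.7 to 25.1%) and 26 of the other 384 (6.77%, 4.66 to 9.74%). CpG-island promoter peaks had the same order, 10.7% and 4.82%. A longer peak offers more bases to overlap, and peak length was not held equal in these shares.

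*Fgf11* was the highest-scoring of them, with 126 tags in erythroblasts and a pro-erythroblast peak of 16 tags and a fold enrichment of 9.14. *Ccdc106* had 119 and 23 tags, *A230052G05Rik* 112 and 17, and *Rgl3* 120 and 17. The pro-erythroblast peaks at the 43 members held between 16 and 31 tags with a median score of 56.6, and none reached a score of 100. The pro-erythroblast library was shallower, with 0.630 times the unique tags of the erythroblast library. The part of depth or of peak length in the shares overlapped was not tested. By composition class, 38 of the 341 members low in CpG ratio alone were overlapped (11.1%, 8.23 to 14.9%) and 4 of the 136 low in both values (2.94%, 1.15 to 7.32%). Of the members without a nearby island 8 of 154 were (5.19%, 2.66 to 9.92%), among them *Slc17a7* and *Tulp1*.

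In Mtf2-null erythroblasts no member was overlapped by an H3K27me3 peak (0 of 486, a count with an upper limit of 0.617%). The background was low as well, since 28 of the 4490 erythroblast peaks (0.624%) were overlapped, all 28 of them CpG-poor peaks away from TSS. The count of 0 was shared by the 1755 CpG-island promoter peaks (limit 0.171%). The 145 members with GC content under 50% (limit 2.07%) and the 154 without a nearby island (limit 1.95%) are parts of the 486. Their counts of 0 were therefore bound to follow and add nothing. The nearest Mtf2-null erythroblast peak was at a median of 320 kb (281 to 352 kb) from a member and 307 kb (290 to 332 kb) from a CpG-island promoter peak, and 3 members had one within 10 kb. The Mtf2-null library was deeper, with 2.23 times the unique tags of the WT library. A missing peak is not a measured absence of the mark, and with 1 library per genotype no spread can be given.

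In Mtf2-null pro-erythroblasts 5 members were overlapped (1.03%, interval 0.440 to 2.39%), compared with 1.87% of all erythroblast peaks and 0.684% of the CpG-island promoter peaks. They were *Syngr3*, *Hmx2*, *Prrt4*, *Gm17379* and *Hes5*, with Mtf2-null peaks of 24, 25, 30, 1167 and 40 tags. Every peak of that list has an FDR of 100%. At *Gm17379* both libraries had long peaks of low fold enrichment, 5.03 in WT erythroblasts and 3.65 in Mtf2-null pro-erythroblasts, and the Mtf2-null peak spanned almost the same bases (chrX:166407504-166423304).

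Mtf2 peaks were rare at the members. A pro-erythroblast Mtf2 peak overlapped 4 (0.823%, interval 0.320 to 2.10%), compared with 1.89% of all erythroblast H3K27me3 peaks and 0.228% (0.0887 to 0.585%) of the CpG-island promoter peaks, although that list holds 28918 peaks. These were *Hoxc10* (Mtf2 peak of 27 tags, fold enrichment 12.8), *Ism2* (25 tags, 11.8), *Gne* (100 tags, 7.28) and *Npdc1* (24 tags, 9.31). An erythroblast Mtf2 peak overlapped 1 member, *Gne* (0.206%, 0.0363 to 1.16%), compared with 1.34% of all peaks and 1 CpG-island promoter peak. *Gne*, which encodes the first enzyme of sialic acid synthesis, was thus the only member with Mtf2 peaks of both stages, with 25 tags and a fold enrichment of 8.94 in erythroblasts, where its H3K27me3 peak had 37 tags and an FDR of 31.5%. Most of the overlap with Mtf2 was at CpG-poor peaks away from TSS, with 71 (3.799%) and 58 (3.10%) of 1869. The erythroblast Mtf2 and H3K27me3 libraries share their IgG control.

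**Figure D5:**
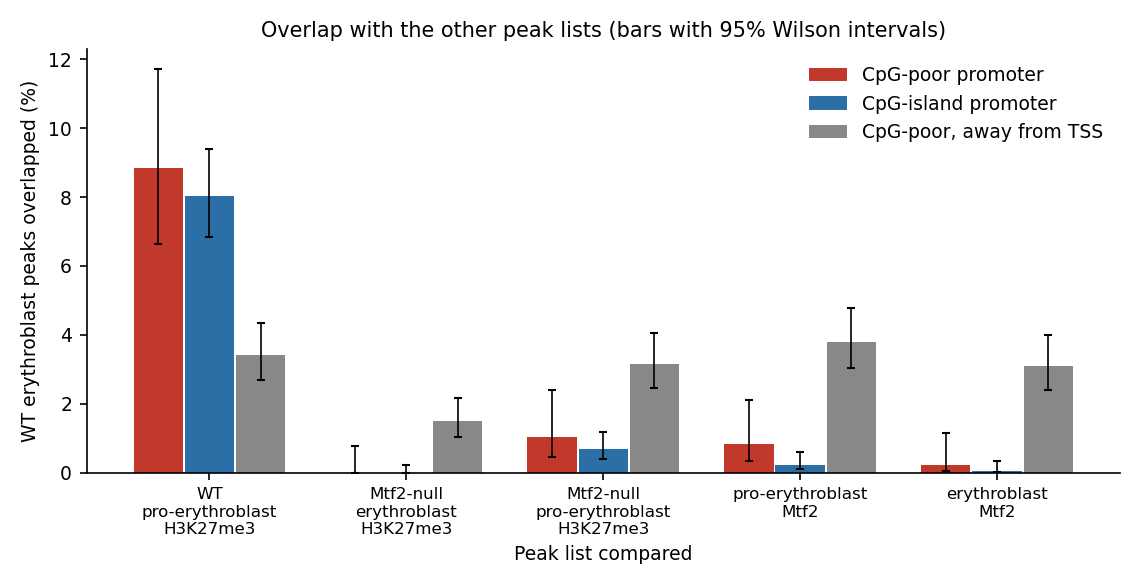
Bars give the share (%) of WT erythroblast H3K27me3 peaks overlapped by at least 1 base of a peak in each other list, for CpG-poor promoter peaks (red, n = 486), CpG-island promoter peaks (blue, n = 1755) and CpG-poor peaks away from TSS (grey, n = 1869), with 95% Wilson intervals. The share of CpG-poor promoter peaks is highest for WT pro-erythroblast H3K27me3, 8.85%, and 0 for Mtf2-null erythroblast H3K27me3.

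The class was spread over all 19 autosomes, with the most members on chromosomes 11 (54) and 2 (52), which also held 160 and 181 CpG-island promoter peaks, and the fewest on chromosome 16 (6). A member overlapped the TSS windows of more than 1 gene in 27 cases (5.56%), and the gene named is then that of the nearest TSS.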

How the data were processed

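ChIP-seq of H3K27me3, Mtf2 and IgG was available for 10 libraries, 1 per condition, though the methods state replicates of 2 and do not say whether these were pooled. Per the submitters' processing notes the authors used Bowtie2 2.2.3, MACS 1.3.7 and mm9, and per the file headers IgG was the control of every call and the p cutoff was 1e-05. Tag counts were deposited raw, as reads per peak. Fold enrichment was deposited as a ratio of ChIP over local or genome-wide background at the summit, computed by the authors. The score deposited for a peak is 10 times the −log10 of its p-value, and FDR was deposited as a percent, which MACS takes from an exchange of ChIP and IgG. The ChIP libraries held 15669899 to 67169672 unique tags. The headers give these apart from the total tags, 23465456 to 85629019, and PCR copies among the total are not separate molecules. The series design text names H3K4me3 in 1 line, while the labels name H3K27me3, which was used.

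TSS were those of every transcript of the 22367 protein-coding genes of GENCODE M1 on NCBIM37, the assembly of mm9, without the mitochondrial genome. A peak was assigned to the TSS nearest its summit among those whose 1 kb window it overlapped. An island-like window had a GC content of at least 50% and a CpG ratio of at least 0.6, and was searched in steps of 50 bp. A shared base was enough for peaks to overlap. Shares carry 95% Wilson intervals and medians binomial order-statistic intervals, both for counting error over peaks of 1 library, and the limit given for a count of 0 is the share of 3 counts. No p-value was computed, as 1 library per condition allows no test.

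The members, the gene lists and the alternatives were chosen with earlier results of these data known. Peaks named were the 20 highest-scoring members, the 5 with the highest fold enrichment, the 3 highest in each composition class, the 3 on either side of each limit, up to 5 highest-scoring per overlapping list and up to 4 per gene group, of which a few are not reported here. *Rundc3a*, *Pyy*, *Kremen2*, the other genes with 3 members, *Zfyve16*, *Muc3*, *Tulp1*, *Gata3* and *Gata6* were named after their values were seen. Alternatives set a score limit of 100, an FDR limit of 5%, a TSS window of 500 bp, composition windows of 500 bp and 2 kb, limits of 55% and 0.65, the peak centre, an overlap of at least 50% and a peak within 1 kb. TSS of protein-coding transcripts only was added after the data were seen. Overlap and composition steps were tested on simulated intervals and strings. Figures were drawn with matplotlib 3.10.9, sequences read with pysam 0.24.0 and statistics computed with scipy 1.17.1, pandas 2.3.3 and numpy 2.4.6 under Python 3.11.15.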

Additional observations from a re-analysis of the deposited data

How the results depend on the processing

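Of 72 values recomputed under an alternative, 49 stayed within the 95% interval of the reported one, or within 1.5 times it for the number of members, and 23 did not, and the cause of each change was not tested beyond what an alternative's construction shows. A score limit of 100 in every list left 102 members, 41.2% of them with an island-like TSS, a fold ratio to CpG-island promoter peaks of 0.896, and 0% overlapped by WT pro-erythroblast H3K27me3, pro-erythroblast Mtf2 or erythroblast Mtf2 peaks. An FDR of at most 5% in every list left 100 members, 42.0% with an island-like TSS, a fold ratio of 0.899, and again 0% overlapped in those 3 lists. Only 1 WT pro-erythroblast H3K27me3 peak and no erythroblast Mtf2 peak has such an FDR, and 216 and 365 have such a score.

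The share with an island-like TSS depended most on the windows. It was 28.7% with a TSS window of 500 bp, 45.8% with a composition window of 500 bp, 16.0% with one of 2 kb, 29.9% at limits of 55% GC and 0.65, and 42.0% with TSS of protein-coding transcripts only. A composition window of 2 kb also raised the number of members to 767 and the share of summits downstream of the TSS to 60.6%. Requiring 50% of a member to be covered lowered the overlap with WT pro-erythroblast peaks to 3.09% and that with erythroblast Mtf2 peaks to 0%, a peak within 1 kb raised the former to 13.0%, and protein-coding transcripts only gave 0% for the latter. The overlap with Mtf2-null erythroblast peaks was 0 of the members under every alternative run. Only the alternative of a peak within 1 kb could have changed it, as no promoter peak of either kind was overlapped. The other alternatives were bound to give 0, and these values count among the 49 that stayed. Peaks of the class rest on few tags, so single members near the calling limit are the least certain. No paired analysis was possible because there was 1 library per condition and no test.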
